A study of Homo sapiens with 20 samples.

Results

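This account follows what interferon gamma (IFNg) did to transcript levels in acute myeloid leukemia (AML) cells that also received tumor necrosis factor alpha (TNFa). The 6 libraries were chosen by their labels and are part of a series of 20: 3 of AML lines kept for 24 h with TNFa alone, and 3 of the same lines kept for 24 h with IFNg and TNFa together, each cytokine at 10 ng/ml. The lines were Kasumi-1, NOMO-1 and THP-1, all established from patients with AML. Each line gave 1 library per treatment, so the line is the replicate and n is 3 on each side. The p-values therefore set the mean change of 3 different leukemias against how unevenly the lines responded to treatment. That spread was estimated over all 12 AML libraries of the series, after each line's own level was taken out. The error of repeated cultures of 1 line was not analysed here. All 6 libraries share TNFa, so the comparison shows IFNg in the presence of that cytokine, and no label states that TNFa was given first. The other 6 AML libraries (untreated and IFNg alone) entered the same fit and allowed the change with IFNg to be set beside that seen without TNFa. The 4 libraries of the endothelial lines iHUVEC and TIME with the same treatments were set against the AML lines in 1 comparison. That comparison was fitted on all 20 libraries of the series. A fit of all 20 was also an alternative setting for the gene tests within AML lines.

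IFNg signals through a receptor of the chains IFNGR1 and IFNGR2 and the kinases JAK1 and JAK2 to factors that bind gamma-activated sites (GAS) in DNA. Among the genes induced are IRF1, whose product binds interferon-stimulated response elements (ISRE), and SOCS1, whose product inhibits the kinases. TNFa signals through its receptors to NF-kB, a family of factors that bind kB sites and drive cytokines, adhesion molecules and their own inhibitors. Many genes of inflammation carry sites for both systems. In myeloid cells IFNg is known for raising antigen presentation, chemokines for T cells and the enzymes of tryptophan breakdown.

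Levels are TPM, a relative transcript level corrected for transcript length, rescaled to the usual TPM total in each library after the 13 genes of the mitochondrial genome were taken out. A change is the difference of log2(TPM + 1) between IFNg+TNFa and TNFa within a line, averaged over the 3 lines, ± its standard error from limma. It understates the ratio of weakly expressed genes. A gene was called, and is said to have risen or fallen, at a Benjamini-Hochberg adjusted p under 0.05 over all 14711 genes tested. Where 3 values stand in a row they belong to Kasumi-1, NOMO-1 and THP-1, in that order. TPM keeps no read count, so depth is unknown.

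In NOMO-1 mitochondrial genes took 73.2 to 82.1% of the deposited TPM over its 4 libraries, against 12.8 to 24.8% for the remaining 8 AML libraries. Nuclear copies of mitochondrial genes, which rescaling did not remove, held 20.7 and 24.4% of the rescaled TPM of NOMO-1 with TNFa and with both cytokines, and at most 1.10% in any Kasumi-1 or THP-1 library. Myeloid genes were present in all 6 libraries: SPI1, the myeloid master regulator, lay between 294 and 874 TPM and the antigen CD33 between 14.3 and 95.4 TPM. RUNX1T1, the fusion partner of RUNX1 in leukemias such as Kasumi-1, was at 47.0 and 80.5 TPM in Kasumi-1 and at most 0.06 TPM in the others. Of 18 endothelial markers, 6 to 12 were at 0 in each library, CDH5 was at 0 in all 6, and VWF was at 1.58 TPM in NOMO-1 with TNFa and at most 0.124 TPM elsewhere.

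The 4 genes that rose most, CXCL9, CXCL10, GBP1 and CXCL11, are shown first by their promoters, since the binding sites known for both cytokine systems can be looked for there. The sequences are from RefSeq (GRCh38.p14) and run 5′ to 3′ on the gene's own strand, which is the minus strand for all 4, from 250 bases before the start of transcription to 50 after it. Capitals mark the ISRE core (GAAA, any 2 bases, GAAA), the GAS pattern TTCNNNGAA and the kB consensus, searched on both strands.
CXCL9 (chr4:76007460-76007759): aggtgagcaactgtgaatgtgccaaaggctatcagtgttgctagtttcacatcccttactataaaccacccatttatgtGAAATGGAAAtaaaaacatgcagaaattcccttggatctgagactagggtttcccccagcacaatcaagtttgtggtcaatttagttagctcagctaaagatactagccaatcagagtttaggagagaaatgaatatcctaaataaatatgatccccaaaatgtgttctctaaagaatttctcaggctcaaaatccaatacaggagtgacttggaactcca
CXCL10 (chr4:76023448-76023747): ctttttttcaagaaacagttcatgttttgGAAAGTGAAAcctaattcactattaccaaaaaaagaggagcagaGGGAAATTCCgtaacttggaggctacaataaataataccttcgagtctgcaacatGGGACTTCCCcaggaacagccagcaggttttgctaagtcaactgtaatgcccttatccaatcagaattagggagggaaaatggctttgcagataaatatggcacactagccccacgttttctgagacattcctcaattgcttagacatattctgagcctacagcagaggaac
GBP1 (chr1:89065159-89065458): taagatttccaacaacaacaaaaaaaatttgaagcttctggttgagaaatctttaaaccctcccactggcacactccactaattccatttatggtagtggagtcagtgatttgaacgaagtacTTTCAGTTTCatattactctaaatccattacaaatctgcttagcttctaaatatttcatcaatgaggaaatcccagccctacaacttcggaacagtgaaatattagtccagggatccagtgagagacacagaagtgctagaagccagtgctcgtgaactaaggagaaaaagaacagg
CXCL11 (chr4:76036021-76036320): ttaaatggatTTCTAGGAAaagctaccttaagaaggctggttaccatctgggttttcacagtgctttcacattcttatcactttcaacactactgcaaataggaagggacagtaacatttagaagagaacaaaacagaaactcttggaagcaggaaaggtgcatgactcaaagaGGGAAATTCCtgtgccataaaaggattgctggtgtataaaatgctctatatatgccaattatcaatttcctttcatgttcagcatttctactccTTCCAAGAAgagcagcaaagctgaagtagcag
CXCL9 held an ISRE core from 171 to 162 bases before the start. CXCL10 held an ISRE core from 221 to 212 bases before it and kB matches from 177 to 168 and from 122 to 113 bases before it. GBP1 held an ISRE core on the other strand, from 127 to 118 bases before the start. CXCL11 held GAS matches from 240 to 232 bases before the start and from 18 to 26 after it, and a kB match from 76 to 67 bases before it. Of all 27305 promoters of this length in the table, 3.65% held the ISRE core, 7.88% the GAS pattern and 10.8% the kB consensus. Of the 10692 tested genes with a promoter in the table, the shares were 2.94%, 6.46% and 13.2%. Of the 237 risen genes with a promoter in the table, 21.1%, 13.5% and 15.6% held them, and of the 343 fallen ones 2.92%, 3.79% and 16.0%. A match is a stretch of letters and not a site shown to be bound.

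Adding IFNg changed the 3 leukemias in the same directions at 731 genes, 4.97% of those tested, of which 318 rose (2.16%) and 413 fell (2.81%). The rises were the larger changes: 188 genes rose and 51 fell by more than 2 on the log2 scale. All 731 moved the same way in Kasumi-1, NOMO-1 and THP-1. The split between rises and falls depended on the scaling. It was 43.5% rises with the rescaled TPM, where the median change of all genes was -0.21, and 70.0% (568 rises and 243 falls) with median-of-ratios scaling, where that median was -0.05. It was 59.7% (141 and 95) with the TPM as deposited. Without Kasumi-1 95 genes were called, without NOMO-1 546 and without THP-1 41. Each of these fits had 3 residual degrees of freedom, against 6 with all lines. Here and below, a call lost without a line cannot be told apart from the loss of libraries. A total of 31 genes stayed called whichever line was left out, all of them risen and all of them also called under both other scalings. Of the 116 genes named by a rule, 89 were called, of which 50 lost the call without Kasumi-1, 10 without NOMO-1 and 67 without THP-1. Among the 21 that kept it each time were CXCL9, CXCL10, GBP1, GBP4, GBP5, IFI27, IDO1, WARS1, GCH1, CCL8, ETV7, BATF2, IRF1, EPSTI1, TAP1, PSME2, FCGR1BP, IL15RA, CDKN1A and EGR2.

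**Figure D1:**
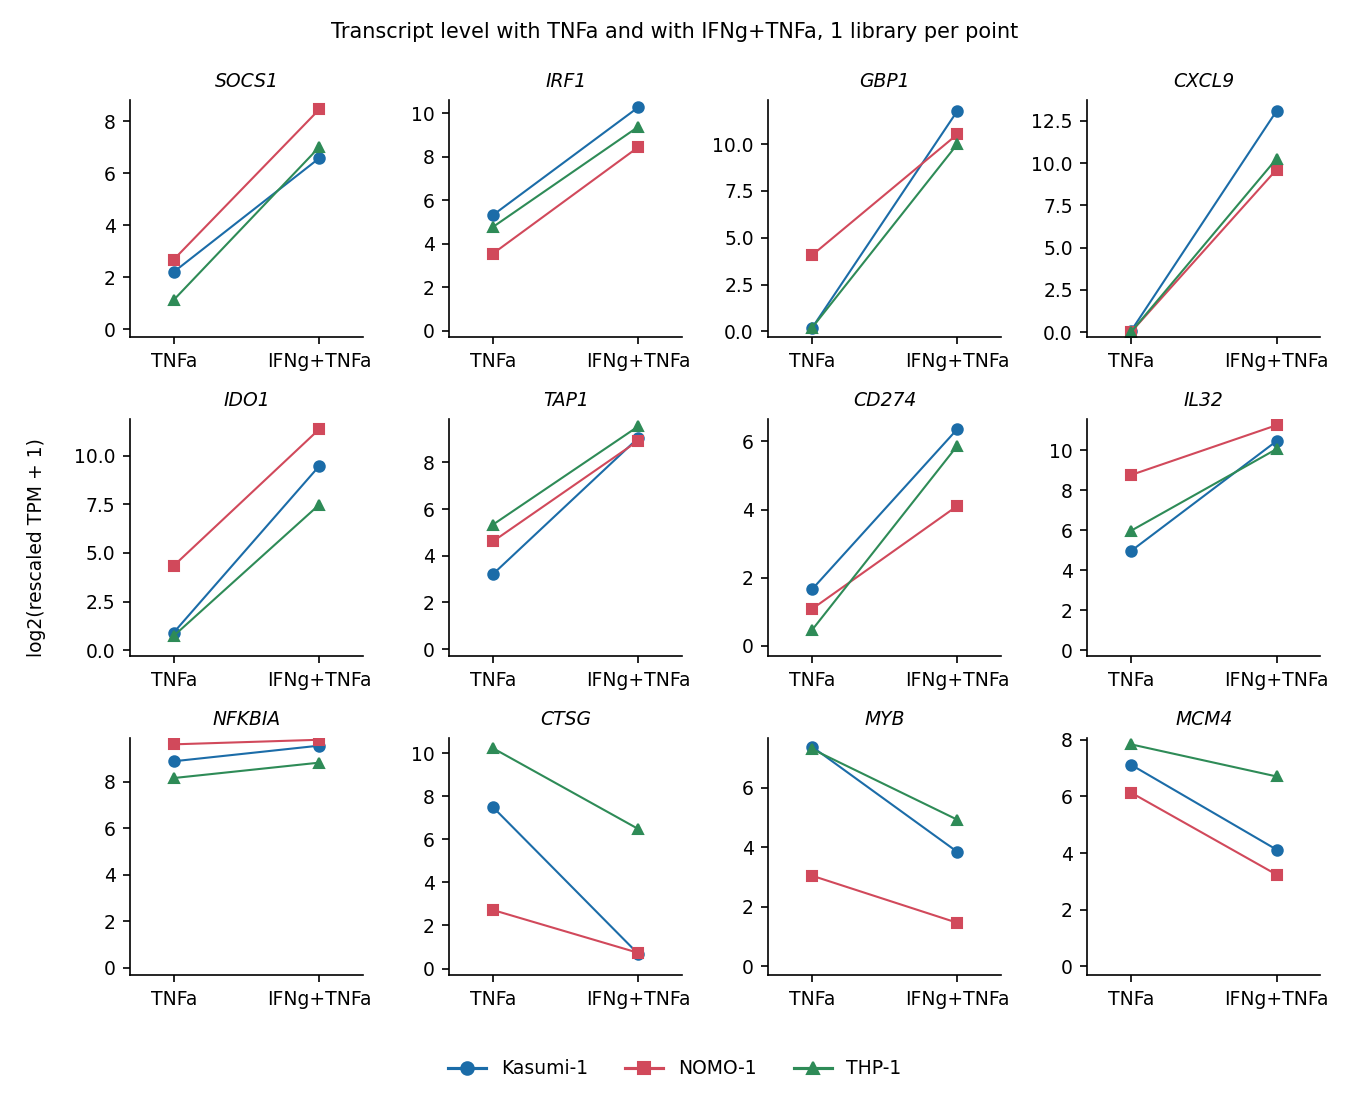
Transcript level of 12 genes with TNFa (left in each panel) and with IFNg+TNFa (right), as log2(rescaled TPM + 1), with 1 library per point and lines joining the libraries of a cell line. All 3 lines rise in the panels from SOCS1 to IL32 and fall for CTSG, MYB and MCM4, while NFKBIA, with a change of 0.51 ± 0.46, was not called.

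The receptor and its pathway came first. Of 14 tested genes of the IFNg receptor and JAK-STAT pathway, 6 rose and none fell, with a median change of 1.56 beside -0.21 for all genes. SOCS1, the feedback inhibitor of JAK kinases, went from 3.61, 5.41 and 1.19 to 94.5, 349 and 127 TPM (5.34 ± 0.60, limma adjusted p = 0.00212). Every library with both cytokines lay above every library with TNFa alone. JAK2 rose by 2.51 ± 0.35, SOCS3 by 2.71 ± 0.62, STAT2 by 2.47 and STAT3 by 1.79. The receptor chains were not called. IFNGR1 stood at 31.8, 64.9 and 40.4 TPM with TNFa and 40.6, 14.9 and 30.2 with both, so that it was lower in NOMO-1 and THP-1 and higher in Kasumi-1 (-0.71 ± 0.39, limma adjusted p = 0.298). IFNGR2 was higher in every line with both cytokines, at 60.2, 70.4 and 48.1 against 20.2, 31.3 and 18.6 TPM (1.33 ± 0.39, limma adjusted p = 0.0791). Without Kasumi-1, NOMO-1 or THP-1 in turn, 2, 7 and 1 members rose.

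Among 11 interferon regulatory factors and related transcription factors, 5 rose and none fell. IRF1, the factor that carries much of the second wave of the IFNg response, went from 38.9, 10.6 and 26.3 TPM with TNFa to 1248, 349 and 670.2 TPM with both. All 3 lines rose by nearly the same amount, 4.97, 4.91 and 4.62 on the log2 scale, and the mean change of 4.83 ± 0.25 had the smallest adjusted p of the named genes (limma, 3.81e-05). ETV7, an ETS family repressor, went from 0.361, 1.78 and 0.431 to 83.9, 96.6 and 127 TPM (5.86 ± 0.36, limma adjusted p = 6.12e-05). BATF2, an AP-1 family partner of IRF1 in macrophages, went from 0.192, 3.09 and 1.55 to 86.7, 51.3 and 116 TPM (5.13 ± 0.44, limma adjusted p = 3.65e-04). BATF3 rose by 3.69 and IRF2 by 1.85. IRF8, a lineage factor of monocytes and dendritic cells, was not called. It was higher with both cytokines in Kasumi-1 and NOMO-1 and lower in THP-1, at 37.7, 60.5 and 291 TPM with TNFa and 119.6, 131 and 91.4 with both (0.36 ± 0.89, limma adjusted p = 0.83). The 5 rises became 3, 5 and 3 without each line in turn, and IRF1, ETV7 and BATF2 kept their calls.

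The guanylate binding proteins, large GTPases that attack the vacuoles of intracellular microbes, held some of the largest rises. Of 8 tested members of the group with other large GTPases, 6 rose and none fell, with a median of 4.62. GBP1 (chromosome 1, 89052319 to 89065360, minus strand, GENCODE 29 on GRCh38) went from 0.132, 15.7 and 0.143 TPM to 3496, 1471 and 1022 TPM, a change of 9.29 ± 0.81 (limma adjusted p = 3.95e-04). With TNFa alone only NOMO-1 had a level above 1 TPM, and with both cytokines THP-1 was the lowest of the 3 lines. GBP4 went from 1.37, 3.45 and 3.64 to 996, 299.6 and 306 TPM (6.95 ± 0.57, limma adjusted p = 2.93e-04). GBP5, which takes part in inflammasome assembly, went from 10.6, 5.34 and 3.82 to 2218, 598 and 468 TPM (6.92 ± 0.47, limma adjusted p = 1.04e-04). GBP2 rose by 5.82, GBP3 by 3.43 and RNF213, a giant ubiquitin ligase, by 3.06. GBP1, GBP4 and GBP5 stayed called without any 1 line, while the count of the group fell to 3 without THP-1. These genes are close relatives in 1 cluster, so reads could be split between them.

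All 3 ligands of CXCR3, the receptor that draws activated T cells and NK cells, rose. CXCL9 (chromosome 4, 76001275 to 76007488, minus strand) was listed at 0 with TNFa in NOMO-1 and THP-1 and at 0.0462 TPM in Kasumi-1. With both cytokines it stood at 8728, 787 and 1229 TPM. The change of 10.97 ± 0.65 was the largest of all called genes (limma adjusted p = 6.12e-05). CXCL10 went from 81.3, 0.212 and 2.72 TPM to 19201, 1932 and 8076 TPM (9.86 ± 1.01, limma adjusted p = 0.00113), and Kasumi-1 was highest on both sides. CXCL11 went from 4.73, 0 and 0.714 TPM to 12252, 87.1 and 1594 TPM (9.13 ± 1.08, limma adjusted p = 0.00271). NOMO-1 had the lowest level of each ligand with both cytokines. Without THP-1 the adjusted p of CXCL11 was 0.0774, and the other two ligands stayed called without any line.

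Of 11 tested genes of tryptophan and arginine metabolism 4 rose and none fell. IDO1, the enzyme that opens tryptophan breakdown and restrains T cells, went from 0.874, 19.3 and 0.663 TPM to 703, 2615 and 177 TPM, a change of 7.44 ± 0.61 (limma adjusted p = 2.93e-04). NOMO-1 was highest on both sides, and no library with TNFa alone reached the lowest library with both. WARS1, the tryptophanyl-tRNA synthetase, went from 118, 194 and 88.3 to 4338, 2636 and 2562 TPM (4.60 ± 0.29, limma adjusted p = 6.12e-05). GCH1, which starts the synthesis of tetrahydrobiopterin, rose by 4.47 ± 0.35 and ACOD1, which makes itaconate in macrophages, by 4.33. KYNU, the kynureninase further down the pathway, was higher with both cytokines in each line, at 164, 23.6 and 53.0 against 9.65, 14.7 and 20.8 TPM, and was not called (1.97 ± 0.77, limma adjusted p = 0.153). The count was 3, 4 and 3 without each line in turn, with IDO1, WARS1 and GCH1 called each time.

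Antigen presentation by MHC class I rose in parts. Of 15 tested members 4 rose and none fell. TAP1, a subunit of the peptide transporter, went from 8.21, 23.4 and 39.2 to 528, 486 and 746 TPM (4.79 ± 0.55, limma adjusted p = 0.00243), and the lines ended closer together than they began. B2M, the light chain of class I, went from 2087, 1342 and 2153 to 10141, 4054 and 9911 TPM (2.03 ± 0.21, limma adjusted p = 0.00118). HLA-E rose by 2.35 ± 0.34 and the trimming peptidase ERAP2 by 1.94. Of 12 tested proteasome subunits and activators of the immunoproteasome list 6 rose and none fell. PSME2, part of the PA28 activator, went from 307, 425 and 454 to 1306, 2159.9 and 2518 TPM, a change of 2.30 ± 0.19 with little spread between lines (limma adjusted p = 2.93e-04). The inducible catalytic subunit PSMB9 went from 0.311, 0 and 4.84 to 35.3, 8.46 and 61.3 TPM (3.82 ± 0.64, limma adjusted p = 0.0123). PSMB10, PSME1, PSMA2 and PSMA4 rose by 2.06, 1.55, 1.31 and 1.21. The class I count was 2, 3 and 1 and the immunoproteasome count 3, 5 and 1 without Kasumi-1, NOMO-1 and THP-1 in turn, and TAP1 and PSME2 kept their calls. TAP1, PSMB9, HLA-E and the other HLA genes lie within the MHC on chromosome 6 (taken as 28 to 34 Mb), where values depend on how reads were assigned among haplotypes.

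MHC class II gave a mixed picture. Of 15 tested members 3 rose, and these were the lysosomal genes IFI30 (4.57 ± 1.08), CTSS (2.91 ± 0.54) and CTSL (2.34 ± 0.35), a thiol reductase and 2 cathepsins that act on proteins and the invariant chain. CIITA, the master activator of class II genes, stood at 41.3, 39.0 and 0.321 TPM with TNFa and 63.8, 37.7 and 17.3 with both. It was higher in Kasumi-1 and THP-1 and about level in NOMO-1, and was not called (1.45 ± 0.81, limma adjusted p = 0.301). CD74, the invariant chain, was already at 1932, 1168 and 292 TPM with TNFa and stood at 4792, 1272 and 1515 TPM with both (1.27 ± 0.54, limma adjusted p = 0.184). By line the median of the list was 0.64, 0.00 and 2.37. HLA-DRA and TNF, both in that interval, were listed at 0 in all 6 libraries, and such a 0 can be a failed estimate. IFI30, CTSS and CTSL were called without NOMO-1 and not without Kasumi-1 or THP-1, where their adjusted p lay between 0.061 and 0.214.

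**Figure D2:**
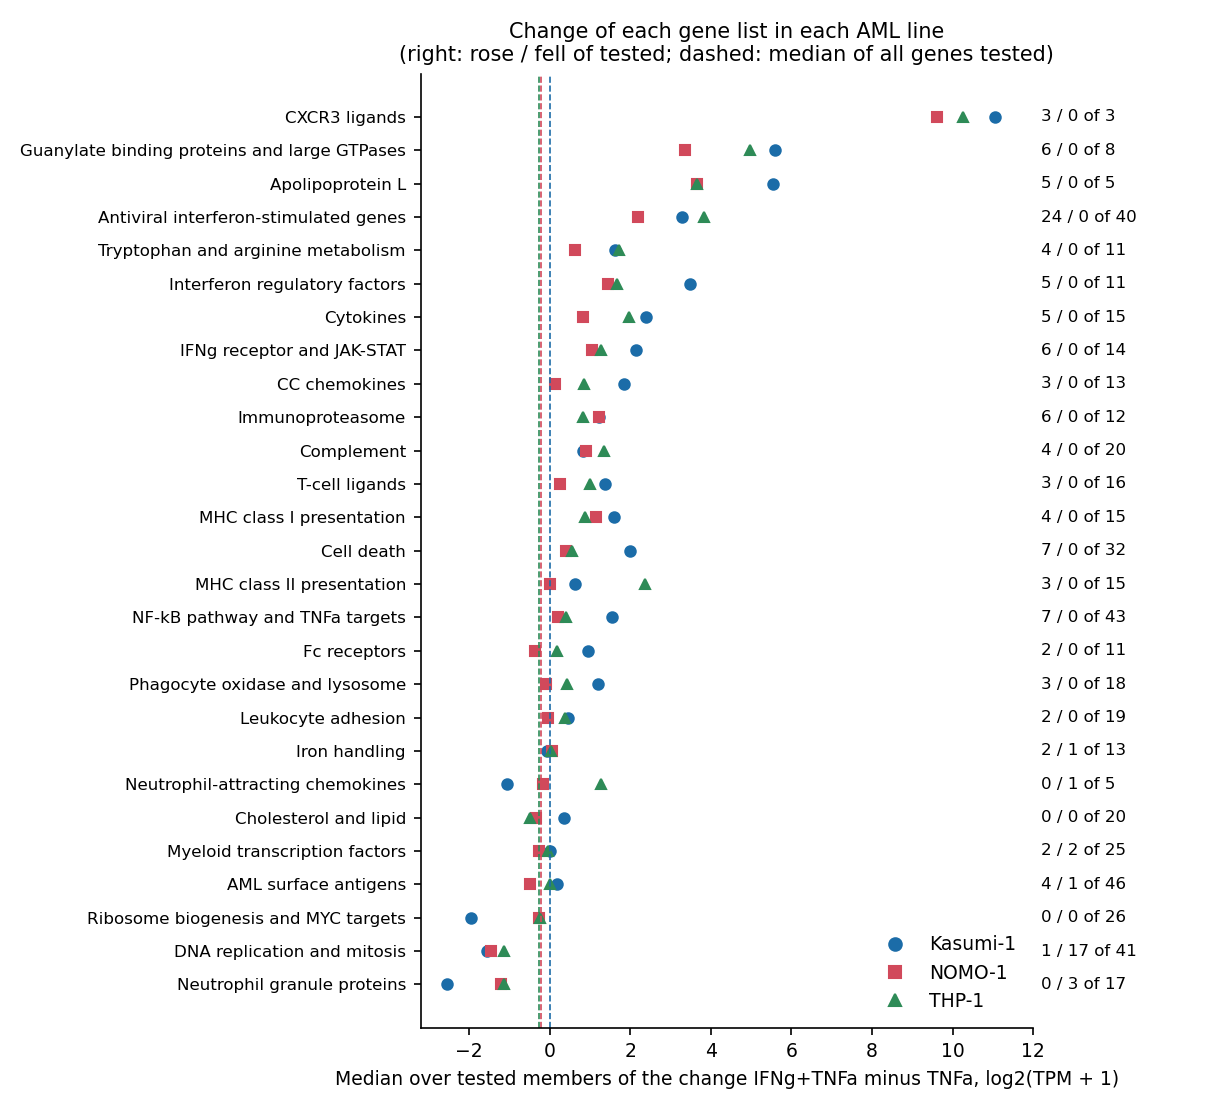
Median change with IFNg added to TNFa over the tested members of each gene list, in each AML line (1 point per line), on the log2(TPM + 1) scale. The dashed verticals are the medians of all genes tested in each line, and the numbers at the right give how many members rose and fell. The CXCR3 ligands stand farthest to the right, and the granule and DNA replication lists lie to the left of the dashed lines in all 3 lines.

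Antiviral interferon-stimulated genes rose as the largest group, 24 of 40 tested with none falling and a median of 3.08. All 40 had a positive change, beside 5046 of all 14711 genes tested. IFI27 went from 1.05, 0 and 0 TPM to 3227, 46.7 and 425 TPM (8.31 ± 0.82, limma adjusted p = 9.17e-04) and ISG20, an exonuclease, from 5.21, 8.72 and 0.675 to 1685, 312 and 284 TPM (6.83 ± 0.93, limma adjusted p = 0.00471). EPSTI1 rose by 5.46 ± 0.51. The lines differed widely in how far the classical members climbed. ISG15, a ubiquitin-like modifier, stood at 271, 22.6 and 35.3 TPM with TNFa and 6629.8, 189 and 1466 with both (4.32 ± 1.06, limma adjusted p = 0.0485). MX1, a dynamin-like restriction factor, went from 248, 1.49 and 0.608 to 1847, 14.9 and 109.9 TPM and was not called (3.89 ± 1.09, limma adjusted p = 0.0704). IFIT1 went from 37.5, 0.0243 and 0.292 to 982, 0.396 and 25.3 TPM and was not called (3.16 ± 1.13, limma adjusted p = 0.127). Kasumi-1 had the highest TNFa level of ISG15, MX1 and IFIT1 and NOMO-1 the lowest level of each with both cytokines. Leaving out a line in turn left 13, 20 and 2 calls, the fewest without THP-1. All 5 tested apolipoprotein L genes rose, from 3.28 for APOL6 to 5.81 for APOL3, and none of the 5 stayed called without THP-1. Of 20 complement genes 4 rose. SERPING1, the C1 inhibitor, went from 0, 0.446 and 0.730 to 49.3, 146 and 346 TPM (6.66 ± 0.98, limma adjusted p = 0.00701), and C1S rose by 1.82 and C4A, whose copy C4B is nearly identical, by 1.80. The 4 rises became 2, 3 and 0 without each line in turn and 1 with the TPM as deposited. SECTM1, a secreted and membrane protein that binds CD7 on T cells, rose by 6.43 ± 0.85.

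Ligands that T cells and NK cells read rose in few cases, 3 of 16 tested. CD274, which encodes the checkpoint ligand PD-L1, went from 2.15, 1.11 and 0.377 to 81.6, 16.3 and 57.8 TPM (4.39 ± 0.45, limma adjusted p = 0.00107). Every library with both cytokines was above every library with TNFa, and NOMO-1 ended lowest. TNFSF10, which encodes the death ligand TRAIL, went from 9.24, 17.9 and 3.60 to 2757, 91.5 and 70.9 TPM, with most of the rise in Kasumi-1 (4.78 ± 1.19, limma adjusted p = 0.0497). TNFSF13B, the B-cell factor BAFF, rose by 2.06 ± 0.44. PDCD1LG2, the other PD-1 ligand, reached only 0.455, 1.60 and 2.52 TPM (0.99 ± 0.32, limma adjusted p = 0.0958). CD40 was higher in each line, at 179, 214 and 103 against 24.0, 56.3 and 16.1 TPM, and was not called (2.45 ± 0.81, limma adjusted p = 0.1). Without THP-1 no member was called, with an adjusted p of 0.0533 for CD274, and without Kasumi-1 CD274 alone was. Of 11 Fc receptor genes 2 rose. FCGR1A, the high-affinity IgG receptor CD64, went from 53.9, 26.8 and 178 to 593, 434 and 811 TPM (3.20 ± 0.55, limma adjusted p = 0.0145), and its near-identical relative FCGR1BP, with which it may share reads, rose by 4.12 ± 0.55. Without Kasumi-1 or THP-1 the adjusted p of FCGR1A was 0.121 or 0.0797.

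NF-kB is the pathway that TNFa, present in all 6 libraries, is known to engage. Of 43 tested genes of the pathway and its targets 7 rose and none fell, where 2.16% of all genes rose, with a median of 0.61. NFKBIA, the inhibitor that NF-kB induces against itself, stood at 470.2, 779 and 285 TPM with TNFa and 749, 893 and 451 with both (0.51 ± 0.46, limma adjusted p = 0.526). TNFAIP3, the ubiquitin editor A20, was higher in Kasumi-1, lower in NOMO-1 and level in THP-1 (0.02 ± 0.40, limma adjusted p = 0.979), and RELB had a change of 0.61 ± 0.34, not called. The members that rose were IL32, BCL2A1, SOD2, GADD45B, ZC3H12A, TNFAIP8 and FTH1. IL32, a cytokine of TNFa-exposed cells, went from 30.2, 435 and 62.0 to 1415, 2457 and 1073 TPM (4.03 ± 0.70, limma adjusted p = 0.0147). BCL2A1, a survival protein of the BCL2 family, went from 7.61, 12.9 and 9.18 to 421, 319 and 75.3 TPM (4.35 ± 0.71, limma adjusted p = 0.0111). SOD2, the mitochondrial superoxide dismutase, rose by 3.42 ± 0.52. It is listed under 2 gene IDs that may split its reads, and the one with the higher mean is given. FTH1, the ferritin heavy chain, was among the most abundant transcripts at 3298, 21659.5 and 7206 TPM and reached 13369, 31195 and 21116 TPM (1.37 ± 0.33, limma adjusted p = 0.0485). Without each line in turn, 2, 8 and 0 members rose.

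Chemokines were read by the cells they attract. Of 13 CC chemokines 3 rose. CCL8 went from 0, 1.12 and 0.0622 to 149.7, 61.8 and 670.4 TPM (7.14 ± 0.71, limma adjusted p = 9.17e-04), CCL4 from 1.44, 13 and 3.27 to 275, 165 and 179 TPM (5.27 ± 0.54, limma adjusted p = 0.00115) and CCL2 from 16.3, 71.3 and 183 to 511, 340.2 and 3679 TPM (3.81 ± 0.63, limma adjusted p = 0.0114). CCL8 stayed called without any line, and without THP-1 the adjusted p was 0.0533 for CCL4 and 0.155 for CCL2. Of 5 tested neutrophil chemokine genes and receptors none rose, and the receptor CXCR2 fell by 1.2 ± 0.25 from 1.34, 1.78 and 5.62 to 0.0763, 0.433 and 1.30 TPM, a call that was lost whichever line was left out and with the TPM as deposited. CXCL8, the main neutrophil attractant, was lower with both cytokines in Kasumi-1 and higher in the other two, at 232, 214 and 53.8 TPM with TNFa and 112, 346 and 202 with both (0.51 ± 0.78, limma adjusted p = 0.715). Of 15 cytokines and their receptors or antagonists 5 rose. IL1RN, the interleukin 1 receptor antagonist, rose by 4.14 ± 0.79, IL18BP, which binds interleukin 18, by 3.41 ± 0.61, and IL15RA, which presents interleukin 15, by 3.55 ± 0.25. IL1B went from 9.82, 34 and 21.6 to 56.3, 200.2 and 128 TPM (2.48 ± 0.54, limma adjusted p = 0.0349). IL27, the fifth, reached only 5.59, 3.48 and 8.22 TPM. IL15RA alone of the 5 stayed called without any line. Of 19 adhesion genes VCAM1 (3.06 ± 0.73) and ICAM1 (1.41 ± 0.32) rose, and ICAM1, the ligand of LFA-1, went from 174, 87.2 and 43.1 to 436, 198 and 144 TPM. Neither was called without NOMO-1 (adjusted p = 0.0931 and 0.0589) or THP-1 (0.304 and 0.24).

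Some genes of myeloid cells and their progenitors fell. Of 17 tested neutrophil granule genes 3 fell and none rose, with a median of -1.70. A positive change was found for 1 of them, beside 5046 of all 14711 genes tested. In bulk RNA, fewer cells of a kind and less RNA per cell cannot be told apart. CTSG, the protease cathepsin G, went from 181, 5.59 and 1211 to 0.598, 0.656 and 88.6 TPM (-4.19 ± 0.87, limma adjusted p = 0.0306), the largest fall of all called genes. LYZ, lysozyme, went from 184, 1555 and 1115 to 11.4, 814 and 81.6 TPM (-2.86 ± 0.61, limma adjusted p = 0.0334) and RNASE2, the eosinophil-derived neurotoxin, from 68.8, 22.4 and 453 to 8.17, 2.46 and 129.9 TPM (-2.49 ± 0.56, limma adjusted p = 0.0396). MPO, myeloperoxidase, stood at 6305 TPM in Kasumi-1 with TNFa and 192 TPM with both, while NOMO-1 and THP-1 had at most 3.09 TPM, and it was not called (-2.16 ± 1.06, limma adjusted p = 0.246). MYB, the progenitor transcription factor, went from 166, 7.23 and 157 to 13.3, 1.74 and 29.3 TPM (-2.50 ± 0.62, limma adjusted p = 0.0497, and 0.0603 with median-of-ratios scaling). GFI1, a repressor needed for granulocytes, went from 115, 6.49 and 127 to 24.6, 0.478 and 22.7 TPM (-2.32 ± 0.47, limma adjusted p = 0.0284). Of the 25 myeloid transcription factors 2 rose, EGR2 by 3.53 ± 0.27 and CEBPB by 1.71, and the count was 1, 2 and 1 without each line in turn. MYC was lower in Kasumi-1 and THP-1 and higher in NOMO-1, at 371, 7.68 and 133 TPM with TNFa and 20.5, 14.8 and 118 with both (-1.14 ± 0.81, limma adjusted p = 0.418). None of the 5 falls named here stayed called without Kasumi-1 or without THP-1.

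Other genes that fell most were PLPPR3 (-3.60 ± 0.78), GHRL (-2.91 ± 0.63), CCDC34 (-2.70 ± 0.53), LGALS12 (-2.65 ± 0.63), TESC (-2.65 ± 0.48) and CLEC11A (-2.62 ± 0.59). CLEC11A, a growth factor for hematopoietic progenitors, went from 788, 133 and 852 to 63.2, 35.1 and 167 TPM. GHRL, the ghrelin gene, had a level with TNFa of 58.7, 226 and 16.3 TPM against 5.29, 5.85 and 3.13 TPM in untreated cells, and with both cytokines it was at 2.95, 53.3 and 1.59 TPM. With both cytokines it was thus lower than in untreated cells in Kasumi-1 and THP-1 and higher in NOMO-1. Of 46 AML surface antigens 4 rose and 1 fell, where 2.16% of all genes tested rose and 2.81% fell. The median change of the list was -0.19, near the -0.21 of all genes. SLAMF7, a receptor of the SLAM family, rose by 4.01 ± 0.93, SIGLEC1, a sialic acid receptor of macrophages, by 3.86 ± 0.63, FCGR1A as above and CD7 by 2.47, and SPN, the sialomucin CD43, fell (-1.41). Without Kasumi-1, NOMO-1 and THP-1 in turn, 0, 5 and 0 antigens rose and 1, 0 and 0 fell, and with the TPM as deposited 2 rose and 0 fell. With median-of-ratios scaling 7 rose and 1 fell. The antibody target CD33 was lower in each line, at 14.3, 75.8 and 57.2 against 19.1, 95.4 and 76.8 TPM, and was not called (-0.38 ± 0.30, limma adjusted p = 0.463). CLEC12A stood at 1.63, 10.2 and 3.26 TPM with TNFa and 0, 6.96 and 0.172 with both (-1.25 ± 0.37, limma adjusted p = 0.0779). IL3RA, the CD123 antigen, was higher in each line (1.06 ± 0.30, limma adjusted p = 0.0722). CD38 was too, from 11.4, 2.38 and 28.5 to 189, 32.4 and 38.8 TPM (2.56 ± 0.65, limma adjusted p = 0.0519, and 0.0305 with median-of-ratios scaling).

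Genes of the cell cycle fell and an inhibitor of it rose. Of 41 tested genes of DNA replication and mitosis 17 fell and 1 rose, with a median of -1.45. An unadjusted limma p under 0.05 was found for 39 of them, beside 3584 of all 14711 genes tested. The gene that rose was CDKN1A, which encodes the cyclin-dependent kinase inhibitor p21. It went from 0.933, 15.4 and 25.9 TPM with TNFa to 612, 285 and 422 TPM with both (5.47 ± 0.79, limma adjusted p = 0.00634), and it stayed called without any line. The replicative helicase subunit MCM4 went from 137, 69.1 and 227 to 16.4, 8.45 and 103 TPM (-2.34 ± 0.53, limma adjusted p = 0.0406). CDC6, which loads that helicase, changed by -2.28 ± 0.53, the kinetochore gene CENPF by -2.19 ± 0.27 and the cyclin CCNB2 by -1.49 ± 0.19. MKI67, the proliferation marker, was lower in each line, at 22.3, 0.406 and 17.1 against 44.3, 2.71 and 52.0 TPM, and was not called (-1.30 ± 0.37, limma adjusted p = 0.0718). The 17 falls became 8 with median-of-ratios scaling and 1 with the TPM as deposited, at medians of -1.25 and -1.26. They became 1, 8 and 1 without Kasumi-1, NOMO-1 and THP-1 in turn, at medians of -1.41, -1.41 and -1.50. None of 26 ribosome biogenesis genes was called (limma), 8 had an unadjusted p under 0.05, and their medians by line were -1.95, -0.26 and -0.24.

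Genes of cell death rose in 7 of 32 cases and fell in none. AIM2, a sensor of DNA in the cytosol, went from 0, 0.943 and 0.0333 to 11.9, 36.8 and 51.9 TPM (4.55 ± 0.81, limma adjusted p = 0.0168). FAS, the death receptor CD95, went from 1.23, 1.92 and 0.213 to 70.0, 7.09 and 7.87 TPM (3.11 ± 0.74, limma adjusted p = 0.0453). TNFSF10 has been described, and NINJ1, which ruptures the membrane of dying cells, rose by 2.98, CASP4 by 2.26 and the survival gene MCL1 by 1.69. The number was 2, 7 and 0 without each line in turn. Among 18 phagocyte oxidase and lysosome genes 3 rose, among them the cathepsins CTSB (1.87 ± 0.26) and CTSZ (1.35 ± 0.31). Of 13 iron genes HMOX1, heme oxygenase, rose by 3.61 ± 0.70 and STEAP3, an iron reductase, fell by 2.15 ± 0.49, beside FTH1 above. None of CTSB, CTSZ, HMOX1 and STEAP3 stayed called without THP-1. None of 20 cholesterol and lipid genes was called (limma), with 5 at an unadjusted p under 0.05, beside 3584 of all 14711 genes tested.

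Markers of other cell types were followed in the same libraries. No tested marker of endothelial (7 genes), fibroblast and mural (6), epithelial (3) or lymphoid cells (7) was called (limma). An unadjusted limma p under 0.05 was found for 3, 1, 0 and 0 of them, beside 3584 of all 14711 genes tested. The summed level of the 18 endothelial markers was 220, 8.76 and 46.6 TPM with TNFa and 63.8, 8.39 and 26.5 TPM with both, most of it in Kasumi-1 and THP-1 from EGFL7, which hematopoietic cells also express. The sum of 14 lymphoid markers was 57, 303 and 40.3 TPM with TNFa and 27.2, 347 and 42.8 TPM with both, most of it in NOMO-1 and THP-1 from NKG7, while CD3E was at most 0.0857 TPM. The part of other cells in the changes above was not tested beyond these values.

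The next question was whether IFNg did the same without TNFa. The change of IFNg alone against untreated cells shares no library with the change on TNFa, and the difference between both changes was tested at each of 14711 genes. None was called (0%, limma), and 470 had an unadjusted p under 0.05. When all 20 libraries shared the fit 1 gene was called, EGR2. Of 318 genes that rose on TNFa, 311 were also higher with IFNg than in untreated cells on average. Over all 14711 genes tested the median of that change without TNFa was -0.09. The 413 genes that fell were not counted in this way. The genes given next were those with the smallest p in this test in the higher direction, and their values are a description. EGR2, a zinc finger factor induced in activated macrophages, stood at 0.0651, 0 and 0.110 TPM untreated, 0.278, 0.769 and 0.706 with IFNg, 0.338, 0.229 and 0.224 with TNFa and 9.19, 15.0 and 18.3 with both. The change on TNFa exceeded that without it by 2.97 ± 0.38 (limma adjusted p = 0.197, unadjusted p = 1.34e-05). For CCL8 the levels were 0, 0 and 0 TPM untreated, 0, 2.52 and 2.85 with IFNg, and those with TNFa given above, and the difference was 5.89 ± 1.00 (unadjusted p = 1.57e-04). CXCL9 was at 121, 55.2 and 20.6 TPM with IFNg alone (5.27 ± 0.91, unadjusted p = 1.84e-04), IDO1 at 9.59, 267 and 2.50 TPM (4.56 ± 0.86, unadjusted p = 3.43e-04) and CCL4 at 0.621, 4.32 and 0.747 TPM (4.05 ± 0.77, unadjusted p = 3.62e-04). For ATP13A2, a lysosomal transporter, the difference was 1.68 ± 0.39. The limma adjusted p of all these was at least 0.197.

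**Figure D3:**
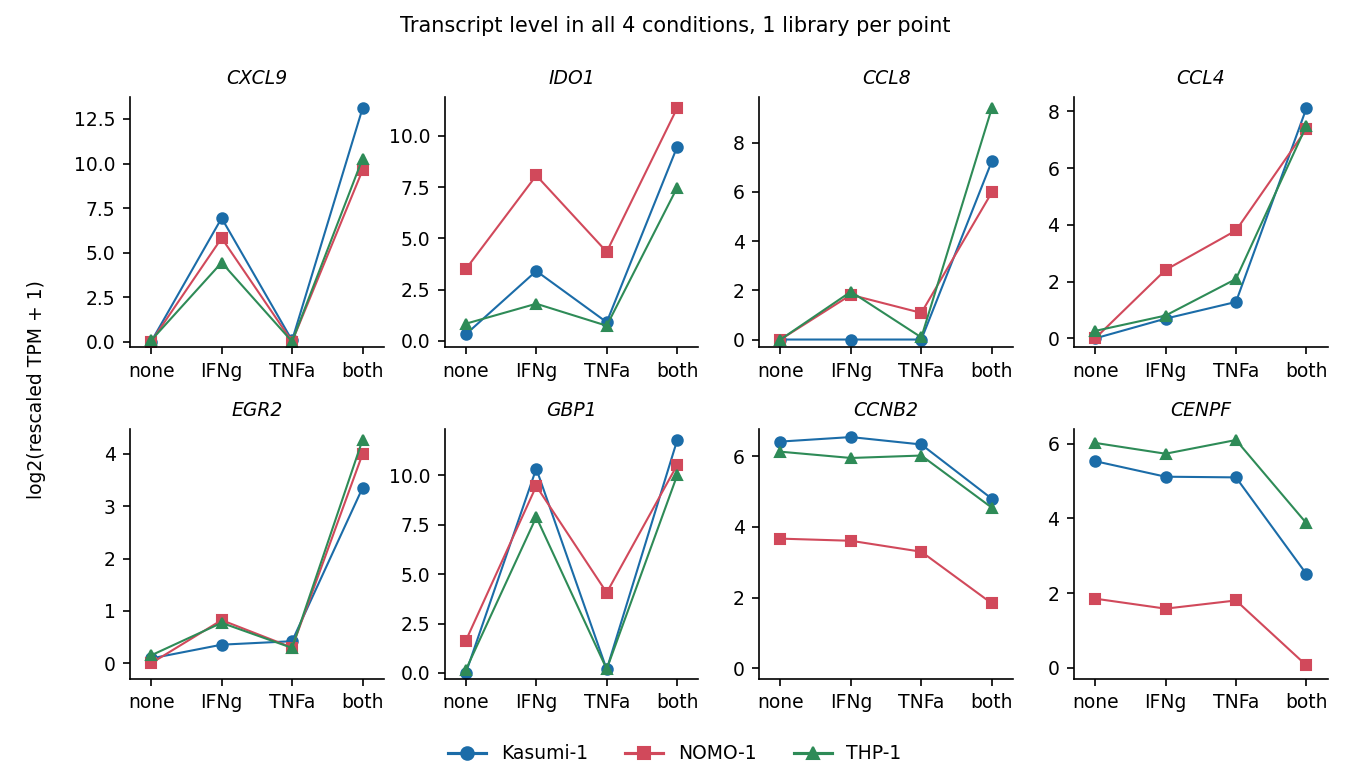
Level of 8 genes in all 4 conditions (no cytokine, IFNg, TNFa, both) as log2(rescaled TPM + 1), with 1 library per point and lines joining the libraries of a cell line. EGR2, CCL8 and CCL4 are highest with both cytokines in every line, GBP1 is high wherever IFNg is present, and CCNB2 and CENPF are lowest with both.

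The genes with the smallest p in the other direction, none of them called, were CCNB2, CENPF, DLL4, MAP4K1, RGS18 and TM7SF3. CCNB2, a mitotic cyclin, was at 84.1, 11.7 and 68.8 TPM untreated and 92.0, 11.2 and 60.7 TPM with IFNg. Its change on TNFa was lower by 1.45 than without (limma unadjusted p = 2.81e-04). CENPF had a difference of -1.86 ± 0.38, DLL4, a ligand of NOTCH receptors, of -2.30 ± 0.50, MAP4K1 of -1.51 ± 0.33, RGS18 of -1.61 ± 0.35 and TM7SF3 of -1.26 ± 0.29. DLL4 stood at 0.0132, 0.702 and 2.29 TPM untreated, 3.44, 9.02 and 20.5 TPM with TNFa and 0.0417, 0.0460 and 6.21 TPM with both. For pathway genes near the top of the response both values stand side by side. GBP1 had a change of 8.63 without TNFa and 9.29 with it, IRF1 of 4.27 and 4.83 and TAP1 of 5.18 and 4.79. A p that misses the threshold does not show that these changes were equal. ICAM1, a known TNFa target, had a smaller change on TNFa (1.41) than without (2.89), with a difference of -1.48 ± 0.45 (unadjusted p = 0.00821).

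**Figure D4:**
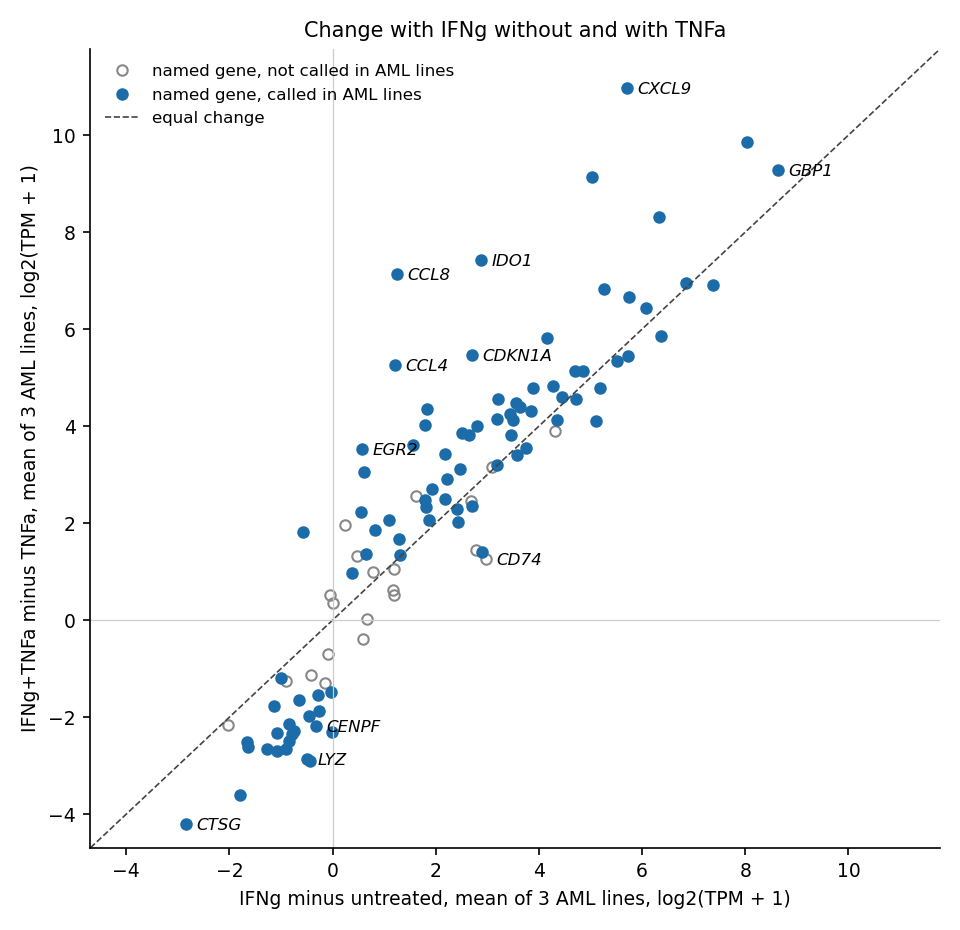
Mean change of each named gene with IFNg in the absence of TNFa (horizontal axis) and in its presence (vertical axis), both on the log2(TPM + 1) scale over 3 AML lines. Points on the dashed line have equal changes, CXCL9, IDO1, CCL8, CCL4 and EGR2 lie above it, and filled points were called for the change on TNFa.

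The same addition of IFNg to TNFa was then compared between AML and endothelial lines. The difference of the changes was called at 26 of 15941 genes (0.163%), 15 higher (0.0941%) and 11 lower (0.069%) in AML lines. Of these, 12 were under 1 TPM in all AML libraries with TNFa or both, so that the endothelial change alone made the difference. CSF2, ANKRD26P1, FBLN5 and NDUFA4P1 are such genes. A gene near 0 in AML lines adds almost no spread of its own to the fit there. Among genes that AML lines express, EGR2 changed by 3.53 in AML and 0.32 in endothelial lines (difference 3.22 ± 0.34, limma adjusted p = 0.00622). In the endothelial libraries with TNFa or both EGR2 was at most 0.480 TPM, so its endothelial values add little spread to the fit. CCL4 was listed at 0 in the endothelial libraries with TNFa and with both (difference 5.27 ± 0.75, limma adjusted p = 0.0265). PIM3, a survival kinase, was higher with both cytokines in every AML line and lower in the endothelial mean, with changes of 0.97 and -0.87 (difference 1.84 ± 0.26, limma adjusted p = 0.0265).

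CD74 went the other way. In iHUVEC and TIME it stood at 6.45 and 6.65 TPM with TNFa and 437 and 844 TPM with both, a mean change of 6.33 against 1.27 in AML lines, which already had 1932, 1168 and 292 TPM with TNFa (difference -5.06 ± 0.78, limma adjusted p = 0.0328). RNASET2, a lysosomal ribonuclease, changed by -1.65 in AML and 0.17 in endothelial lines, PHACTR1 by -1.77 and 0.39, and RGS18, listed at 0 in the endothelial libraries with TNFa and with both, by -1.88 in AML lines. Several genes at the top of the AML response were not called in this test. CXCL9 had changes of 10.97 and 11.67 (difference -0.70 ± 1.07, limma adjusted p = 0.93) and GBP1 by 9.29 and 4.47 (difference 4.82 ± 1.29, limma adjusted p = 0.206). CDKN1A had changes of 5.47 in AML and 0.45 in endothelial lines (difference 5.02 ± 1.13, limma adjusted p = 0.125). The count of 26 moved with the lines included and with the pseudocount. It was 0 with a pseudocount of 0.1. Omitting Kasumi-1 or THP-1 left 1 call each, omitting NOMO-1 gave 105, and omitting iHUVEC or TIME gave 142 or 22.

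**Figure D5:**
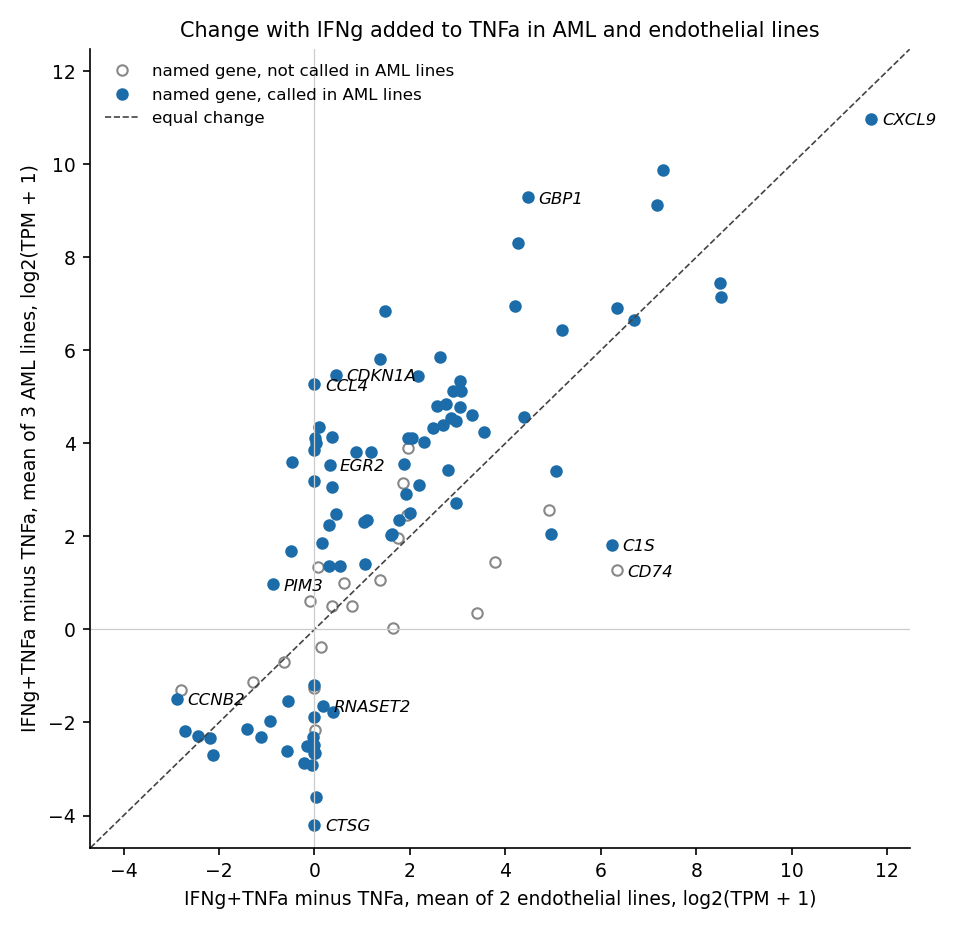
Mean change of each named gene with IFNg added to TNFa in 2 endothelial lines (horizontal axis) and 3 AML lines (vertical axis), on the log2(TPM + 1) scale. Points on the dashed line have equal changes, CD74 and C1S lie to the right of it, and CCL4, EGR2 and CDKN1A lie near 0 on the endothelial axis.

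Transcript usage, the percentage of a gene's TPM that a given transcript makes up, was compared last. Among 16827 transcripts of 6869 genes none was called for a change of its share (0%, limma). An unadjusted p under 0.05 was found for 772, and the smallest adjusted p was 0.874. Genes under 1 TPM in any AML library, such as CXCL9, CXCL10, GBP1 and IDO1, were not tested here. The smallest unadjusted p belonged to a transcript of GPN2, whose share was 63.5, 70.8 and 56.0% with TNFa and 39.0, 25.9 and 34.5% with both cytokines. It differed by -30.32 ± 5.07 percentage points and was lower in all 3 lines. Transcripts of TBC1D17 (30.29 ± 5.11 points), SYTL1 (27.85 ± 4.73), TMEM248 (-33.60 ± 5.73) and NCAPH2 (32.48 ± 5.62) followed, with the same adjusted p. Without NOMO-1 the smallest adjusted p was 0.0927.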

How the data were processed

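Per the labels' protocols, RNA was taken after 24 h, purified with a QIAGEN kit and read on a NovaSeq instrument. Per the submitters' processing notes, Salmon 1.2.0, DESeq2 1.28.1 and the GRCh38 p13 build were used, with no roles stated. Which annotation release they were run with is not known here. Values deposited by the authors are TPM per gene (35168 genes) and per transcript (170068 transcripts). Columns marked x2 were taken to hold IFNg+TNFa, the treatment of each line that no other column holds. Gene columns summed to 947940 to 995175 TPM, so some TPM lay outside the listed genes.

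From these values the 13 MT- genes were removed and each library rescaled to the usual TPM total. limma 3.58.1 (R 4.3.3) was fitted with a trend to log2(TPM + 1) of the 12 AML libraries with terms for line and treatment (residual df 6, prior df 4.0), for genes with at least 1 TPM in at least 2 libraries. The comparison with endothelial lines used all 20 libraries. Transcript shares in percent were fitted with limma for genes with a mean of at least 5 TPM and at least 1 TPM in every AML library. Transcripts with a very small or very large mean share were left out. Pairing by line comes from the labels: deviations from the group means correlated at 0.67 to 0.89 over 18 pairs of libraries of 1 line. No 2 libraries were identical. Of the gene IDs 35051 were named from a table of gene names and 110 from GENCODE 29, which also gave coordinates. The fits were tested on simulated data. For genes the simulated spread was capped below that of many genes named here, such as CXCL10, SOCS1, TAP1 and MCM4. The simulation does not cover these. Summaries and plots used Python 3.11.15 with pandas 2.3.3 and matplotlib 3.10.9.

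Genes were named by a rule: the 12 largest rises and 8 largest falls, the 3 most changed called members of each list, a panel of known response genes, and the genes or transcripts with the smallest p in the other tests. Genes named outside it are further members of the lists, and in the closing section other called genes. The comparison, the lists and the panel were chosen with earlier results of these data known. Some genes are not reported here.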

Additional observations from a re-analysis of the deposited data

Results flagged for a closer look

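For 11 results the change with IFNg added to TNFa differed between AML and endothelial lines by the test of that difference (limma, adjusted over 15941 genes). Higher in AML lines were CCL4, with a difference of 5.27 on the log2(TPM + 1) scale, EGR2 (3.22), CSF2 (3.22), ANKRD26P1 (1.999) and PIM3 (1.84). Lower in AML lines were CD74 (-5.06), FBLN5 (-2.64), PHACTR1 (-2.16), RGS18 (-1.88), RNASET2 (-1.82) and NDUFA4P1 (-1.48). CSF2, the gene of a myeloid growth factor, was listed at 0 in the 6 AML libraries, and in iHUVEC and TIME it went from 19.0 and 52.7 to 1.79 and 3.45 TPM. FBLN5, an elastic fibre gene, went from 0.408 and 0.254 to 4.23 and 10.4 TPM in the endothelial lines and was under 1 TPM in AML lines. ANKRD26P1 and NDUFA4P1 are pseudogenes, also under 1 TPM in AML lines, and their values are uncertain where reads are shared with other copies.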

How the results depend on the processing

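Changes in the settings moved the count of 731 genes to 233 with no filter, 236 with the TPM as deposited, 169 in the 6 libraries alone and 1996 with all 20 libraries in the fit. Leaving out 1 line gave 41 to 546. The pairing mattered most: with no replicate block 25 genes were called, all risen, and all 25 were among the 731. The remaining settings gave 632 to 910, among them removal of the nuclear mitochondrial copies (866), chosen after seeing the data. None of the shared calls changed direction. The difference with and without TNFa stayed at 0 calls except for 1 with all 20 libraries. The difference between AML and endothelial lines, 26 calls, gave 0 with a pseudocount of 0.1, 9 at a minimum of 5 TPM, 1 with no replicate block, and 1 to 105 without an AML line (142 without iHUVEC). Transcript shares stayed at 0 calls, also with no replicate block. Of named genes, 4 changed sign when a line was left out, none of them called: CXCL8 (-0.18 to 1.29), IRF8 (-0.28 to 1.37), MYC (-2.14 to 0.35) and TNFAIP3 (-0.27 to 0.34). The medians of the cholesterol, myeloid transcription factor and neutrophil chemokine lists changed sign with median-of-ratios scaling, to 0.11, 0.03 and 0.14. The cause was not tested. TPM gives no depth, so no limit of detection can be stated.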

Other observations

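The genes given here are called genes outside the lists and were chosen after their values were seen. ATF3, a stress-induced transcription factor, went from 2.42, 2.31 and 1.18 TPM with TNFa to 327, 34.7 and 28.6 TPM with both (4.59 ± 0.53, limma adjusted p = 0.00244). LGALS3BP, a secreted galectin-binding protein, went from 18.7, 0 and 2.29 to 846, 13.5 and 65.5 TPM (4.54 ± 0.42, limma adjusted p = 5.65e-04). UBE2L6, the conjugating enzyme for ISG15, rose by 4.11 ± 0.39, LAP3, an aminopeptidase, by 3.21 ± 0.22 and SNX10, an endosomal sorting protein, by 2.66 ± 0.29, and these 5 kept their calls without any 1 line. TBX21, the T-bet factor of T helper cells, reached 91.0, 19.0 and 9.02 TPM from 0, 0 and 0 TPM (4.72 ± 0.71, limma adjusted p = 0.00749). NAMPT, which makes a precursor of NAD, went from 49.6, 4.39 and 6.88 to 421, 35.8 and 61.0 TPM (2.94 ± 0.32, limma adjusted p = 0.00168), and TMSB10, an actin-binding peptide, rose by 2.41 ± 0.28. The purinergic receptors P2RY14 and P2RX7 rose by 3.75 and 2.81. TBX21, NAMPT, TMSB10 and both receptors lost their calls without at least 1 line.

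Falls outside the lists, picked likewise with no theme tested among the 413, were HELLS (-2.44 ± 0.40), UHRF1 (-2.20 ± 0.38), UNG (-2.15 ± 0.46) and DNMT1 (-0.83 ± 0.19). HELLS, a chromatin remodeller, went from 31.3, 7.48 and 20.3 to 2.38, 0.433 and 6.52 TPM. CX3CR1, the fractalkine receptor of monocytes, went from 0.574, 10.1 and 11.6 to 0.0464, 0.307 and 1.86 TPM (-1.94 ± 0.41, limma adjusted p = 0.032). Each of these 5 lost its call without at least 1 line.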
